A study of Homo sapiens with 24 samples.

Results

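Macrophages stimulated with LPS and interferon gamma (M1) were set against macrophages stimulated with IL-4 (M2), both grown from control THP-1 cells. The comparison used 8 of the 24 RNA-seq libraries of the series, 4 of each state, and 11725 of the 58735 genes of the deposited table, namely those with a level of at least 1 FPKM in 4 of these 8 libraries. THP-1 is a human monocytic leukaemia line, so the values describe a leukaemic line and not blood-derived macrophages. All groups used here had been exposed to PMA, a phorbol ester that turns these monocytes into adherent macrophage-like cells, at 20 nM for 72 hours. The M1 cells (WT, 4 libraries) then received LPS at 1 ug/ml together with 100 ng/ml of interferon gamma, and the M2 cells (WT, 4 libraries) received 100 ng/ml IL-4. Resting cells (M0, WT, 4 libraries) and M1 and M2 cells of a line with a stable short-hairpin RNA against carboxylesterase 1 (CES1KD, 4 libraries each) were used for reference. The sources used here give neither the length of the stimulation nor any vector in the WT cells. The labels do not name separate cultures, so the p-values measure the spread between these libraries only.

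LPS is a bacterial cell wall component that signals through TLR4, with CD14 and LY96 as helpers, to NF-kB and to interferon regulatory factors. Interferon gamma signals through JAK1 and JAK2 to gamma-activated (GAS) sites in promoters, while type I interferon acts through a complex with STAT2 and IRF9 at interferon-stimulated response elements (ISRE). IL-4 signals through JAK1 and its partner kinases to STAT6, which binds a palindrome like the GAS site but with a longer spacer. Macrophages driven by LPS and interferon gamma are known for cytokines, microbe killing and antigen presentation, and those driven by IL-4 for lectin receptors, lipid handling and chemokines that attract T helper type 2 cells.

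The promoters of 3 chemokine genes high in M1 and of 3 genes high in M2 are printed because each holds a letter motif of the factors just described. The sequences are from RefSeq on GRCh38.p14 and run 5′ to 3′ from 250 bases before to 50 bases after the start of the gene, all on the minus strand. They cover chr4:76023448-76023747 for CXCL10, chr4:76007460-76007759 for CXCL9, chr4:76036021-76036320 for CXCL11, chr3:50611725-50612024 for CISH, chr19:7747485-7747784 for CD209 and chr19:7702082-7702381 for FCER2. Capitals mark matches, on either strand, to GAAANNGAAA (ISRE-type, in CXCL10, CXCL9 and CD209), TTCNNNGAA (GAS-type, in CXCL11 and CISH) or TTCNNNNGAA (STAT6-type, in FCER2), and no marked match overlaps another.
CXCL10: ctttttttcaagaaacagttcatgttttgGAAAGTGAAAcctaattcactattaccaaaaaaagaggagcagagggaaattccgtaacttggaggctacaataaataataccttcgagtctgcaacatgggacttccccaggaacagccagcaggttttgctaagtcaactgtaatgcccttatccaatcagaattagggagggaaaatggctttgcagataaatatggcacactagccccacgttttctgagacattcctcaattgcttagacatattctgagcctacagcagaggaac
CXCL9: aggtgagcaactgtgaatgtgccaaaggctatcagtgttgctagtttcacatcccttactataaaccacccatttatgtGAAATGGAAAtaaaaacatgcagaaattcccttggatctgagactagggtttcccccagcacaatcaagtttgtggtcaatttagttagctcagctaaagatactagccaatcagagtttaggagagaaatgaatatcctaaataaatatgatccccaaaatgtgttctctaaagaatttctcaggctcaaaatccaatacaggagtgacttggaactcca
CXCL11: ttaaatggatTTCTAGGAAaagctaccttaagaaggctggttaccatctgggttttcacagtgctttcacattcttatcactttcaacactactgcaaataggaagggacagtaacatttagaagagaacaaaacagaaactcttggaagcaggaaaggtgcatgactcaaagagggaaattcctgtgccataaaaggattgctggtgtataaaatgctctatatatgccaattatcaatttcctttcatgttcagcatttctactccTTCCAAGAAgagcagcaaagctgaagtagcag
CISH: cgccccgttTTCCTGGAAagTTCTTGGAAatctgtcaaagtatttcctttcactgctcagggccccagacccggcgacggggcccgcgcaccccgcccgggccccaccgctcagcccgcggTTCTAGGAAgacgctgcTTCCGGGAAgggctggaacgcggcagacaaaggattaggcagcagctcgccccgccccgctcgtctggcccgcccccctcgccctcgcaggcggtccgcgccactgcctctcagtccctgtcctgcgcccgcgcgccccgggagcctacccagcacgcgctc
CD209: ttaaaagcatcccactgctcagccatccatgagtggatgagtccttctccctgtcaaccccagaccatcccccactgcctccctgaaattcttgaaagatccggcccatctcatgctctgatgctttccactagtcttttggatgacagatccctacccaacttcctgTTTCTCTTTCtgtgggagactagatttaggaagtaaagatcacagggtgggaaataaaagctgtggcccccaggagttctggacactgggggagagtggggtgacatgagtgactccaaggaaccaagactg
FCER2: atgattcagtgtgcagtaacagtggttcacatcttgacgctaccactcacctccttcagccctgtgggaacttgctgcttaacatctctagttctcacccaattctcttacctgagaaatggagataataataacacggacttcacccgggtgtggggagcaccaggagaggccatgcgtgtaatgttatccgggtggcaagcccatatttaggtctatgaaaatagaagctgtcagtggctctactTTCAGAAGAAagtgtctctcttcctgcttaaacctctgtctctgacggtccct
The CISH promoter held 4 GAS-type matches, at 241, 230, 129 and 112 bases before the start. Of the 27305 promoters of the same length in the table, 3.65% held the ISRE-type letters, 7.88% the GAS-type, 6.37% the STAT6-type and 0.579% an NF-kB-type motif, GGGANTTTCC. A match is a string of letters and was not tested as a binding site. Only 8527 of the 11725 genes (72.7%) matched a promoter by gene identifier or name. Of the 208 genes at least 4-fold higher in M1, 148 matched, and of the 58 at least 4-fold higher in M2, 35 did. Motif shares of those gene sets would cover the matched genes only, and they are not compared here.

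Levels are in FPKM, which are fragments divided by gene length and by a library size, and differences are in log2(FPKM + 1), M1 minus M2, with the standard error (SE) of a limma model over all 24 libraries. Genes with a Benjamini-Hochberg adjusted p below 0.05 over the 11725 genes were called. The log2 differences of genes near 0 understate the ratio of levels because of the added 1. The M1 libraries held 16199844 to 21771894 fragments on genes and the M2 libraries 15529869 to 21606119. Mitochondrial genes took 1.36 to 1.77% of the fragments in M1 and 1.91 to 2.80% in M2. Replicate 2 of CES1KD M2 stood apart from its group, with r of log2 levels from 0.951 to 0.957 to the others, which lay between 0.989 and 0.991 among themselves. Leaving it out gave 6223 genes called between WT M1 and M2, through the spread shared by the fit. A principal component with 83.0% of the variance of the 8 libraries separated the states, and CES1, the knockdown target, lay between 4.04 and 7.78 FPKM in the 12 WT libraries and between 0 and 0.124 in the 12 knockdown libraries. Of 12 macrophage and monocyte markers, 10 passed the filter on levels: CSF1R, the receptor of a macrophage growth factor, was at 259 ± 9.28 FPKM in M1 and 217 ± 9.38 in M2 (SD, n = 4 each), whereas CD68 was at 0.0467 and 0.0494 FPKM, and the mannose receptor MRC1 at 0.0047 in M1 and 1.07 in M2. The summed level of the 12 markers ran from 1721 to 1836 FPKM in M1 and from 1297 to 1419 in M2. CD3D, CD3E, CD3G, COL1A2, COL3A1, DCN, LUM, EPCAM and HBB, markers of T cells, fibroblasts, epithelium and red cells, were listed at 0 in all 8 libraries. Other markers of other cell types, among them CD4, TRAC, PDGFRA and PAX5, were expressed and are given below.

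Nearly as many genes were called higher in M2 as in M1, while large differences leaned toward M1. Of the 11725 genes, 5491 were called (46.8%), 2849 higher in M1 (24.3%) and 2642 higher in M2 (22.5%). Each list count below stands against these shares of all genes. At least 2-fold differences on the log2(FPKM + 1) scale were found for 968 genes (8.26%), 655 higher in M1 (5.59%) and 313 higher in M2 (2.67%). At least 4-fold differences were found for 208 genes higher in M1 (1.77%) and 58 higher in M2 (0.495%). The median absolute log2 difference of all genes was 0.23 and the median was -0.01. In bulk samples, fewer cells of a type and less RNA per cell cannot be told apart. The deposited values had been scaled by a library size that was 0.922 to 0.946 of the fragment total in M1 and 1.03 to 1.07 of it in M2, and scaling by the total instead shifted the median to -0.14 and gave 2086 genes called higher in M1 and 4358 higher in M2. The 4 libraries of a state did not overlap those of the other for 4941 genes (42.1%). Of the 208 genes with the 4-fold rise in M1, 62 passed the filter on levels in M1 libraries only, and 21 of the 58 in M2 passed it in M2 libraries only.

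**Figure D1:**
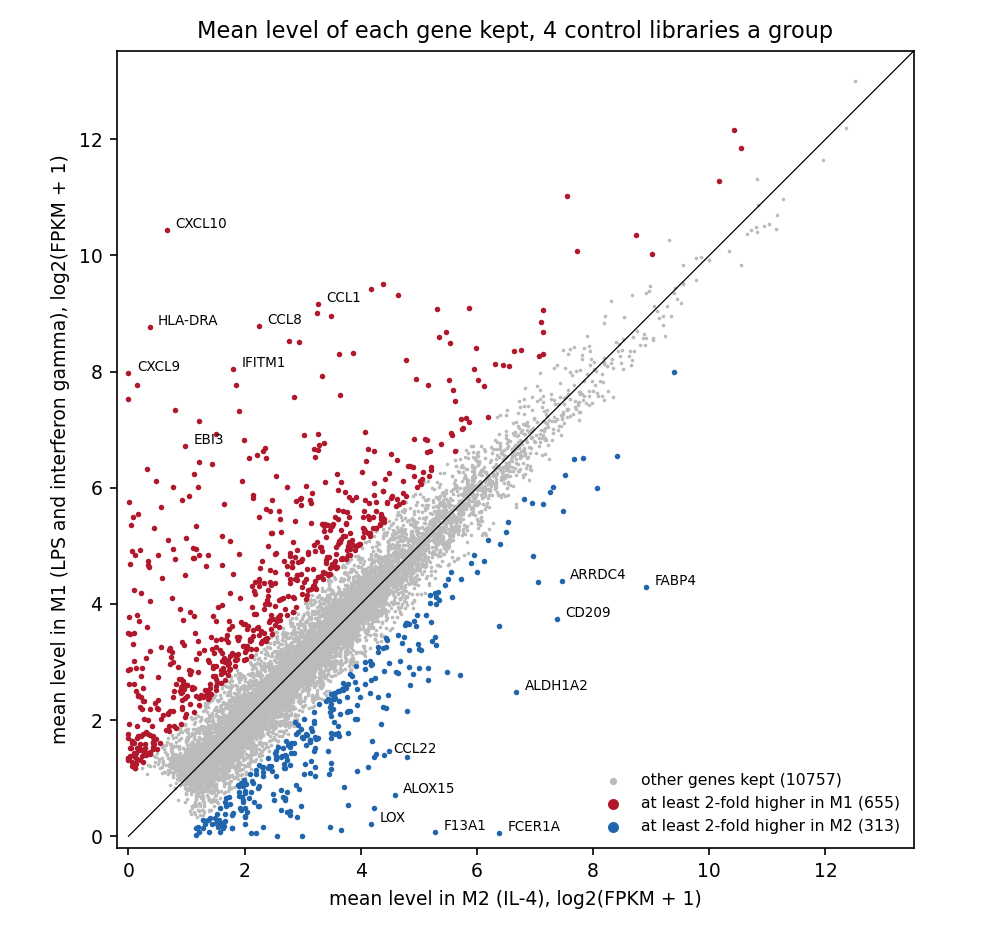
Mean level of each of the 11725 genes in M2 (x axis) and M1 (y axis), both as log2(FPKM + 1) over 4 libraries, with genes called and at least 2-fold different in colour. The cloud of 655 genes above the diagonal reaches farther from it than the 313 below it, and CXCL10 and HLA-DRA at the upper left and FCER1A, F13A1 and FABP4 at the lower right lie farthest out.

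The resting M0 cells gave a reference level for each gene, described here without a test. For 203 of the 208 genes at least 4-fold higher in M1 (97.6%), the M0 mean lay nearer to M2 than to M1. For the 58 genes at least 4-fold higher in M2, the M0 mean lay nearer to M1 for 47 (81.0%). Over the 313 genes at least 2-fold higher in M2 this held for 185 (59.1%), and the M0 level of the other genes lay nearer to M2. Over all 2642 genes called higher in M2 it held for only 963 (36.4%), and the M0 mean lay above both states for 910. Of the 2849 genes called higher in M1, the M0 mean lay nearer to M2 for 2356 (82.7%). CD14, the LPS co-receptor, was 1 of the 5 genes at least 4-fold higher in M1 whose M0 mean lay nearer to M1: it was at 34.0, 37.6, 35.0 and 33.2 FPKM in the M1 libraries, at 2.07, 2.06, 2.39 and 1.71 in the M2 libraries, and at a mean of 37.5 in M0. Its M1 and M0 levels were close together and the M2 libraries were all far lower, and the M1 minus M2 difference was 3.56 (SE 0.13, limma adjusted p = 3.31e-16).

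The largest difference on the log2(FPKM + 1) scale was in CXCL10, a chemokine that attracts activated T cells and NK cells through the receptor CXCR3. Its level was 1417, 1353, 1447 and 1306 FPKM in the M1 libraries and 0.460, 1.02, 0.569 and 0.250 in the M2 libraries. All 4 M1 libraries were far above every M2 library, with a log2 difference of 9.80 (SE 0.14, limma adjusted p = 1.06e-23). CXCL9, another ligand of CXCR3, was at 242, 228, 299 and 231 FPKM in M1 and had no fragment in any M2 library. Its mean was at least 16700-fold higher in M1, taking 3 fragments over the 4 M2 libraries, or 0.0149 FPKM, as the floor. CXCL11, the remaining CXCR3 ligand, was at 226, 197, 255 and 195 FPKM in M1 and at 0, 0.258, 0.0701 and 0.123 in M2, a log2 difference of 7.62 (SE 0.11). CXCL13, which attracts B cells, was at 181, 164, 214 and 174 FPKM in M1 and had no fragment in M2, at least 6420-fold higher in M1.

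Of 20 inflammatory chemokines, 17 were kept, and all 17 of those kept were called higher in M1, against 24.3% of all genes, with a median log2 difference of 4.34 against -0.01 for all genes; 8 of the 17 passed the filter in M1 libraries only. The monocyte attractants CCL2, CCL7 and CCL8 differed by 5.76, 5.80 and 6.55 on the log2 scale. CCL1, which binds CCR8, differed by 5.90 with mean levels of 574 ± 49.2 FPKM in M1 and 8.64 ± 1.038 in M2. The neutrophil attractant CXCL8 was at 365 ± 53.7 FPKM in M1 and 6.69 ± 0.789 in M2 (log2 difference 5.57). CCL5, an attractant of T cells and monocytes, was high in both states, at 2490 ± 215 FPKM in M1, 1154 ± 84.0 in M2 and 165 ± 6.14 in M0, so its log2 difference was only 1.11 (SE 0.12, limma adjusted p = 3.49e-08). CCL3 and CCL4 belong to families with near-identical copies, so their values are uncertain.

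**Figure D2:**
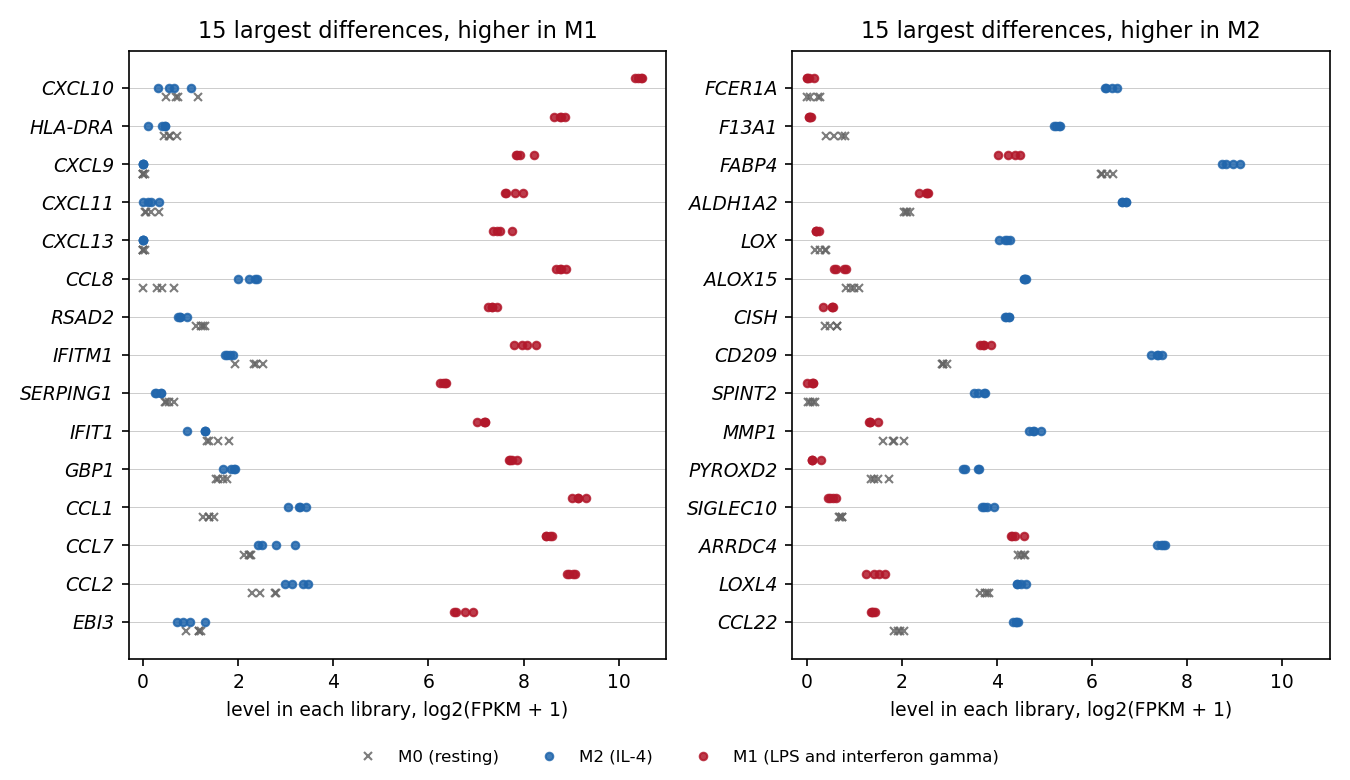
Level in each library, as log2(FPKM + 1), of the 15 protein-coding genes with the largest difference in each direction: red points are M1, blue points M2 and grey crosses resting M0 libraries. The genes were picked among those called, with a mean of at least 2 FPKM in the higher state and no overlap between M1 and M2 libraries. The 4 M1 and the 4 M2 points of each gene thus lie apart by this choice. The M0 crosses sit near the M2 points for the M1 genes, and near the M1 points for most of the M2 genes.

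Every kept member of both interferon lists was higher in M1. Of 34 type I interferon response genes, all 34 were kept and called, with a median log2 difference of 4.38; 9 of them passed the filter in M1 libraries only. RSAD2, which makes an antiviral nucleotide, was at 161 ± 9.02 FPKM in M1 and 0.747 ± 0.0975 in M2 (log2 difference 6.54, SE 0.09). IFIT1, which binds viral RNA ends, was at 140 ± 7.71 and 1.32 ± 0.290 FPKM (5.94, SE 0.11), and ISG15, a ubiquitin-like modifier, at 729 ± 137 and 19.8 ± 1.46 FPKM (5.12, SE 0.20). IFIT1 lies within LIPA, a lysosomal lipase gene on the other strand that was higher in M2, RSAD2 overlaps CMPK2 and IFITM1 overlaps IFITM2, and the sources used here do not say whether counting used the strand. USP18, which removes ISG15, had the smallest difference of the list, 1.68, with 34.1 FPKM in M2 and 41.9 in M0. IFNB1, the type I interferon gene itself, stayed below the filter at 0.146 FPKM in M1 and 0 in M2.

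Of 30 interferon gamma response genes, 27 were kept and all 27 kept were called higher in M1, with a median of 3.33; 5 passed the filter in M1 libraries only. GBP1, a guanylate-binding protein that coats bacteria in the cytosol, was at 217, 209, 230 and 208 FPKM in M1 and at 2.20, 2.77, 2.80 and 2.58 in M2. The states lay far apart, with a log2 difference of 5.92 (SE 0.08, limma adjusted p = 1.82e-24). Its pseudogene GBP1P1 also was higher in M1 (4.71, SE 0.11), and reads of near-identical copies cannot be assigned with certainty. IDO1, which breaks down tryptophan, was at 52.7 ± 5.29 FPKM in M1 and had 2 fragments over the M2 libraries, a ratio of 6300 with an exact 95% interval from counting error alone of 1740 to 52000. SERPING1, an inhibitor of the complement protease C1, was at 78.7 ± 2.75 FPKM in M1 and 0.247 ± 0.0574 in M2 (limma adjusted p = 2.86e-25). WARS, the tryptophanyl-tRNA synthetase, was at 411 ± 27.5 and 43.0 ± 0.760 FPKM (3.22, SE 0.05).

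Among the signal carriers and interferon regulatory factors, STAT2 differed by 3.31, JAK2 by 1.93, IRF1 by 3.72 and IRF7 by 2.88. IRF8, a regulator of monocyte fate that interferon gamma is known to induce in other settings, went the other way: it was at 12.5, 12.7, 12.5 and 14.2 FPKM in M1, at 31.19, 29.01, 29.77 and 31.76 in M2, and at a mean of 15.1 in M0. Every M2 library was above every M1 library, with a difference of -1.17 (SE 0.06, limma adjusted p = 1.00e-13). STAT6, the IL-4 factor, was itself higher in M1, at 49.5 ± 2.75 FPKM against 34.2 ± 2.47 (0.52, SE 0.08), and IL4R differed by -0.22 (SE 0.08) with overlapping libraries. Over the 17 kept STAT and SOCS genes, 9 were called higher in M1 and 5 higher in M2, against 24.3% and 22.5% of all genes. Their median was 0.22, and 2 passed the filter in the libraries of 1 state only. Scaling by fragment totals gave 8 and 6 and a median of 0.09.

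The inhibitors of cytokine signalling split by state. CISH, a STAT5 and cytokine receptor inhibitor, was at 0.450, 0.454, 0.263 and 0.466 FPKM in M1 and at 17.3, 18.1, 17.1 and 18.1 in M2. Its M2 libraries were all above its M1 libraries, with a log2 difference of -3.73 (SE 0.11, limma adjusted p = 2.13e-18). CISH overlaps MAPKAPK3 on the other strand, whose mean was 25.6 FPKM in M1 and 68.9 in M2. SOCS1, an inhibitor of JAK kinases and a textbook target of interferon gamma, was at 3.19 ± 0.513 FPKM in M1, 10.2 ± 1.23 in M2 and 0.615 ± 0.0980 in M0, higher in M2 (difference -1.41, SE 0.21, limma adjusted p = 5.79e-06). SOCS3 was higher in M1 by 0.68 (SE 0.17), with overlapping libraries.

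Antigen presentation was called higher in M1 nearly throughout. Of 21 genes of the MHC class I pathway, 20 were kept and 19 were called higher in M1 and 0 higher in M2, with a median log2 difference of 1.70. B2M, the shared light chain, was at 1075 ± 55.3 FPKM in M1 and 209 ± 17.2 in M2 (2.36, SE 0.06), the peptide transporter TAP1 at 294 ± 20.2 and 26.5 ± 0.667 FPKM (3.42, SE 0.08), and the immunoproteasome subunit PSMB9 at 101 ± 11.2 and 16.5 ± 0.968 FPKM (2.53, SE 0.10). The kept member without a call was the chaperone CANX.

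HLA-DRA, which encodes the HLA-DR alpha chain, was at 432, 397, 466 and 442 FPKM in the M1 libraries and at 0.376, 0.385, 0.0697 and 0.321 in the M2 libraries. No M2 library reached 1 FPKM, and the log2 difference was 8.41 (SE 0.09, limma adjusted p = 1.45e-25). CD74, the invariant chain, was at 682 ± 53.9 FPKM in M1 and 17.0 ± 1.34 in M2 (5.25, SE 0.08), and CIITA, the master activator of the class II genes, at 2.11 ± 0.190 and 0.0368 ± 0.0277 FPKM (1.58, SE 0.06). Of 17 genes, 15 were kept, 14 were called higher in M1 and 0 higher in M2, and 8 passed the filter in M1 libraries only. The median was 3.27. HLA-DPB1 and HLA-DQA1 had no fragment in M2, so the added 1 understates their ratios of levels. HLA-DRB1 and HLA-DRB5 are near-identical, and their values of 4.59 and 4.83 are uncertain. RFX5 and RFXANK, which bind class II promoters with CIITA, differed by 0.56 and 0.36, and RFXAP was not called. Of the ligands that meet T cells with the presented peptide, CD40 differed by 2.86, CD80 by 2.54 and the inhibitory ligand CD274 by 2.24, while CD86 was at 1.18 FPKM in M1 and 1.55 in M2, without overlap, and missed the threshold (-0.23, SE 0.10). Of the 18 kept costimulatory and checkpoint genes, 13 were called higher in M1 and 0 higher in M2, and 3 passed the filter in the libraries of 1 state only. With scaling by fragment totals these 2 counts were 12 and 1.

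IL1B, a fever-inducing cytokine, was at 312, 308, 325 and 320 FPKM in M1 and at 12.6, 11.1, 10.4 and 11.4 in M2, with a mean of 21.2 in M0. The states did not overlap, and the log2 difference was 4.68 (SE 0.08, limma adjusted p = 6.37e-22). EBI3, a subunit of IL-27 and IL-35, was at 104 ± 13.5 FPKM in M1 and 0.968 ± 0.358 in M2 (5.75, SE 0.15), TNFSF10, the death ligand TRAIL, at 74.4 ± 7.94 and 1.19 ± 0.235 (5.11, SE 0.12), and TNF at 12.1 ± 1.38 and 0.138 ± 0.150 (3.53, SE 0.14). Of 25 cytokines only 13 were kept, of which 11 were called higher in M1 and 0 higher in M2, with a median of 1.37. Of all genes, 24.3% and 22.5% were called so, and scaling by fragment totals made the cytokine counts 10 and 1. Of the 13 kept, 4 passed the filter in the libraries of 1 state only. IL6 was at 0.290 FPKM in M1 and 0 in M2, IL12B at 0.0613 in M1 and 0 in M2, and IL10 at 0.0588 in M1 and 0.0155 in M2, so these defining cytokines fell below the filter. IL1RN, the antagonist of the IL-1 receptor and often listed with IL-4, was at 343 ± 27.5 FPKM in M1, 202 ± 10.1 in M2 and 28.6 ± 3.19 in M0 (0.76, SE 0.07). IL1R1, the receptor that it blocks, was lower in M1, at 4.25 FPKM against 18.6 in M2 (-1.90, SE 0.08).

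NF-kB pathway genes were called higher in M1 for 18 of 19 kept members, against 24.3% of all genes, with a median of 1.43. The exception was IRAK3, a brake on Toll-like receptors, which was not called. With scaling by fragment totals, 16 members were called higher in M1 and 1 higher in M2. The feedback genes TNFAIP3, BCL3, ZC3H12A and NFKBIA differed by 2.44, 2.17, 2.03 and 1.56 on the log2 scale. Of the LPS receptor genes other than CD14, TLR4 was at 4.06 ± 0.296 FPKM in M1 and 2.72 ± 0.308 in M2 (0.44, SE 0.10), and LY96 differed by -0.45. CD180, a relative of TLR4 that restrains LPS signalling, was at 1.54, 2.26, 2.50 and 2.12 FPKM in M1, at 15.3, 18.6, 17.8 and 17.1 in M2, and at a mean of 13.6 in M0. The M1 libraries were the low ones, with a difference of -2.56 (SE 0.10, limma adjusted p = 1.81e-15). Inflammasome genes included AIM2, a DNA sensor that differed by 4.88, and CASP1, the protease that matures IL-1 beta, at 36.1 ± 1.22 and 4.47 ± 0.382 FPKM (2.77, SE 0.06). PYCARD, the adaptor between sensors and CASP1, was at 26.6 FPKM in M1 and 27.8 in M2 and was not called.

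On the M2 side the leading gene was FCER1A, the alpha chain of the high-affinity IgE receptor. It was at 0, 0.111, 0 and 0.0417 FPKM in the M1 libraries and at 77.6, 90.7, 76.3 and 85.0 in the M2 libraries, with a mean of 0.107 in M0. M1 and M0 held no more than a trace: 3 fragments in M1 stood against 7116 in M2, a ratio of 2240 with an exact 95% interval from counting error alone of 766 to 10900. The log2 difference was -6.33 (SE 0.09, limma adjusted p = 9.47e-24). FCER2, the low-affinity IgE receptor CD23 and a textbook target of IL-4, was at 0.402, 0.158, 0.183 and 0.397 FPKM in M1 and at 5.64, 5.02, 5.77 and 7.12 in M2 (-2.42, SE 0.14). FCER1G, the signalling chain of IgE and IgG receptors, was abundant in both, at 666 FPKM in M1 and 500 in M2.

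Of 40 genes on the IL-4 response list, 26 were kept, 18 were called higher in M2, against 22.5% of all genes, and 3 higher in M1, with a median log2 difference of -1.12. Of the 26 kept, 8 passed the filter in the libraries of 1 state only. F13A1, the A chain of clotting factor XIII, was at 0.0421, 0.0412, 0.0531 and 0.0726 FPKM in M1 and at 38.6, 37.0, 36.1 and 39.3 in M2 (-5.20, SE 0.07). ALOX15, a lipoxygenase, was at 0.483, 0.530, 0.717 and 0.786 FPKM in M1 and at 22.7, 22.7, 23.5 and 23.1 in M2 (-3.89, SE 0.07). CD209, the lectin DC-SIGN, was at 11.4, 12.3, 13.7 and 12.0 FPKM in M1, at 150, 177, 167 and 165 in M2 and at a mean of 6.39 in M0 (-3.63, SE 0.09). In each of these 3 genes the lowest M2 library was above the highest M1 library. The crosslinking enzyme TGM2 was at 47.3 ± 3.56 FPKM in M1, 178 ± 8.52 in M2 and 7.70 ± 0.429 in M0 (-1.89, SE 0.08). The lipid-presenting molecules CD1B, CD1C and CD1E differed by -1.43, -2.12 and -1.11. The 3 members higher in M1 were IL1RN, PDCD1LG2, a ligand of PD-1, and the histamine receptor HRH1, with differences of 0.76, 0.80 and 0.69. MRC1, ARG1, CLEC10A, CCL17, CCL18 and CCL24, which are common markers of IL-4 macrophages, were below the filter, and CCL17 was at 0.204 FPKM in M1 and 0.216 in M2.

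CCL22, a chemokine that binds CCR4 on T helper type 2 and regulatory T cells, was higher in M2. It was at 1.55, 1.59, 1.63 and 1.73 FPKM in M1 and at 20.2, 19.4, 20.3 and 20.9 in M2, so that the states lay far apart, with a difference of -3.02 (SE 0.06, limma adjusted p = 7.38e-21). Of 10 chemokines associated with IL-4, 5 were kept, 1 was called higher in M2 and 3 higher in M1, against 22.5% and 24.3% of all genes. Among the 3 was CXCL16, a scavenger chemokine, at 48.3 ± 0.938 FPKM in M1 and 11.2 ± 0.745 in M2 (2.02, SE 0.07).

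Lipid handling genes near PPARG, the fatty acid sensing nuclear receptor, were among the larger M2 differences. FABP4, a fatty acid carrier, was at 17.9, 21.6, 19.7 and 15.2 FPKM in M1 and at 424, 549, 454 and 497 in M2, with a mean of 77.2 in M0. M1 was below M0 and M2 above it, and the difference was -4.62 (SE 0.10, limma adjusted p = 8.51e-21). PPARG itself was at 7.13 FPKM in M1 and 16.9 in M2 (-1.14, SE 0.06), the lipase LPL at 254 and 669 (-1.40, SE 0.08), the droplet coat PLIN2 at 11.9 and 36.0 (-1.52, SE 0.06) and the scavenger receptor CD36 at 16.4 and 38.2 (-1.17, SE 0.08). The list of 17 kept genes was mixed, with 6 called higher in M1 and 7 in M2 and a median of -0.09: the acyl-CoA synthetases ACSL1, ACSL3 and ACSL4 were higher in M1 by 1.30, 0.34 and 0.84. ALDH1A2, which makes retinoic acid, was at 4.16, 4.85, 4.74 and 4.70 FPKM in M1 and at 98.8, 104, 98.4 and 105 in M2 (-4.19, SE 0.06), and it overlaps AQP9, a glycerol channel gene at 2.83 FPKM in M1 and 19.4 in M2. Cholesterol synthesis and uptake genes leaned to M1 by small amounts, with 13 of 24 called higher in M1, 2 higher in M2 and a median of 0.23. Of all genes, 24.3% were called higher in M1 and 22.5% higher in M2. With scaling by fragment totals the cholesterol counts were 9 and 2 and the median 0.09. That scaling gave 4 and 10 and a median of -0.29 for the 17 fatty acid genes. NR1H3, the sterol receptor LXR alpha, differed by 1.66. CES1 was at 4.63 ± 0.759 FPKM in M1 and 6.32 ± 0.610 in M2 (-0.39, SE 0.08, limma adjusted p = 0.000497), and its libraries overlapped between the states.

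Lipid mediator genes divided between the states. Beside ALOX15, the cytosolic phospholipase PLA2G4A was higher in M2, at 25.2 FPKM in M1 and 58.9 in M2 (-1.20, SE 0.07), as was the leukotriene receptor CYSLTR1 (-2.15, SE 0.11) and the inducible cyclooxygenase PTGS2, at 1.91, 1.25, 2.24 and 1.43 FPKM in M1 and 4.66, 5.06, 4.98 and 4.37 in M2 (-1.10, SE 0.09). PTGS2 is a textbook target of LPS, and every M2 library was above every M1 library. The leukotriene-making lipoxygenase ALOX5 and its helper ALOX5AP were higher in M1 by 1.18 and 1.19. Of 14 kept genes, 5 were called higher in M1 and 7 in M2, against 24.3% and 22.5% of all genes, with a median of -0.39.

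Matrix genes divided in the same way. MMP9, a gelatinase, was at 387 ± 36.4 FPKM in M1 and 39.6 ± 3.29 in M2 (3.26, SE 0.12), and SPP1, the secreted protein osteopontin, at 4582 ± 292 and 1370 ± 90.7 FPKM (1.74, SE 0.07). The collagenase MMP1 was at 1.502, 1.473, 1.821 and 1.506 FPKM in M1 and 29.5, 24.7, 26.2 and 26.5 in M2 (-3.43, SE 0.09). The elastase MMP12 differed by -2.87, the collagen crosslinking enzyme LOX by -3.97, the proteoglycan VCAN by -2.07 and the protease PLAU by -1.69. Of 22 kept genes, 7 were called higher in M1 and 12 in M2, against 24.3% and 22.5% of all genes, with a median of -0.27. Of the 22 kept, 3 passed the filter in the libraries of 1 state only. VCAM1, an adhesion molecule, was at 0.0063 ± 0.0088 FPKM in M0, 9.58 ± 0.516 in M1 and a higher mean in M2, with a difference of -0.50. The integrin ITGAM, part of a complement receptor, was at 52.1 FPKM in M1 and 122 in M2 (-1.21, SE 0.04).

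Complement genes belonged mostly to M1: 11 of 15 kept were called higher in M1 and 1 higher in M2, with a median of 2.26. Of all genes, 24.3% were called higher in M1 and 22.5% higher in M2. Of the 15 kept, 4 passed the filter in the libraries of 1 state only. C1QA, C1QB and C1QC, the chains of the recognition molecule C1q, differed by 3.30, 4.42 and 4.15 and C3 by 2.84. The member higher in M2 was CD55, a regulator that protects host cells (-0.80). The scavenger receptor CD163, often used as a marker of alternatively activated macrophages, was at 8.70, 8.91, 10.5 and 9.58 FPKM in M1 and at 1.746, 2.098, 1.503 and 2.072 in M2. Each M1 library was above each M2 library, with a difference of 1.87 (SE 0.08, limma adjusted p = 1.46e-15). AXL and MERTK, receptors for dying cells, were higher in M1 by 1.75 and 1.09, and TREM2, a lipid-sensing receptor, was higher in M2 (difference -0.68, SE 0.16).

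Of the enzymes that act on tryptophan, arginine, itaconate and pterins, ACOD1, which makes itaconate, was at 29.03 ± 2.23 FPKM in M1 and 0.0395 ± 0.0458 in M2 (4.85, SE 0.06), TDO2, a second tryptophan dioxygenase, at 192 ± 9.69 and 11.4 ± 1.15 (3.96, SE 0.06), and GCH1, the first enzyme of tetrahydrobiopterin synthesis, at 55.4 ± 4.48 and 3.43 ± 0.156 (3.67, SE 0.08). The arginine enzymes that separate the states in mouse macrophages were near 0 in both: NOS2 was at 0.0495 and 0.0538 FPKM and ARG1 at 0.0062 and 0.0210. Glycolysis genes were split, with 10 of 24 kept called higher in M1, 5 higher in M2 and a median of 0.17. Of all genes, 24.3% and 22.5% were called so, and scaling by fragment totals made the glycolysis split 7 and 7. HK2 was at 37.0 FPKM in M1, 18.2 in M2 (0.99, SE 0.06), while PFKP, the platelet-type phosphofructokinase, was at 73.9 in M1, 182 in M2 (-1.29, SE 0.06). Nuclear genes of oxidative phosphorylation were called higher in M2 for 15 of 24 kept and higher in M1 for 0, with a median of -0.35, for example ATP5PB with -0.60 and NDUFA4 with -0.54. Of the 13 mitochondrially encoded genes, only 2 were called, both higher in M2, where 22.5% of all genes were. With scaling by fragment totals the counts were 21 of 24 and 8 of 13, and 4358 of all genes were called higher in M2. In the citric acid cycle, 6 of 19 were called higher in M2, where 22.5% of all genes were, and 1 higher in M1, or 12 and 1 with scaling by fragment totals, and MDH1, the cytosolic malate dehydrogenase, had the widest difference, -0.96 (SE 0.06).

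Iron, zinc and purine genes had single members with large differences. The metallothionein MT2A was at 358 ± 61.1 FPKM in M1 and 45.6 ± 8.85 in M2 (2.95, SE 0.15), though its family has near-identical copies, and FTH1, the ferritin heavy chain, at 1306 ± 403 and 427 ± 83.2 (1.58, SE 0.33). The iron exporter SLC40A1 was higher in M2 (-1.13, SE 0.09). P2RX7, the ATP-gated channel, was at 29.5, 28.8, 33.0 and 28.6 FPKM in M1 and at 1.11, 1.69, 0.956 and 1.16 in M2 (3.81, SE 0.08), and the adenosine receptor ADORA3 was at 2.43 and 10.2 FPKM (-1.70, SE 0.08). CYBB, the catalytic chain of the NADPH oxidase, differed by 2.09, and CAT, which breaks down hydrogen peroxide, by -1.37. NCF1, an oxidase subunit, differed by 4.16 and its pseudogene NCF1C by 4.08, and reads cannot be assigned to either with certainty.

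Genes of cell division leaned toward M2. Of 28 kept cell cycle genes, 14 were called higher in M2 and 2 higher in M1, against 22.5% and 24.3% of all genes, with a median log2 difference of -0.31. MKI67, the proliferation marker, was at 6.59 ± 0.735 FPKM in M1, 14.1 ± 1.96 in M2 and 18.6 ± 1.36 in M0 (-0.99, SE 0.13), and TOP2A, a DNA topoisomerase of dividing cells, at 11.5 ± 1.46, 26.2 ± 2.72 and 35.5 ± 1.26 (-1.12, SE 0.13). The replication helicase genes MCM2, MCM3, MCM4, MCM6 and MCM7 were not called, and MCM5 was higher in M1 by 0.35. Lysosomal genes leaned to M1, with 18 of 29 called higher in M1, 4 higher in M2 and a median of 0.28, where 24.3% of all genes were called higher in M1; scaling by fragment totals gave 14 and 8 and a median of 0.13. The cathepsins CTSB, CTSL, CTSS and CTSH differed by 1.55, 1.75, 1.55 and 1.85. Of the transcription factors, BATF2 differed by 3.33, CEBPB by 1.42, KLF4 by -1.24 and ID3 by -1.81. The list of 25 kept had 11 called higher in M1 and 7 higher in M2, against 24.3% and 22.5% of all genes. Its median of 0.10 became -0.04 with scaling by fragment totals.

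Markers of other cell types were not all silent, and their part in these results was not tested. The summed level of 4 B cell markers ran from 11.9 to 14.8 FPKM in M1 and from 1.41 to 1.62 in M2, that of 7 T cell markers from 96.9 to 104 and from 118 to 132, and that of 5 neutrophil and granule markers from 139 to 179 and from 182 to 218. PAX5, the B cell transcription factor, was at 13.11, 11.72, 12.49 and 14.02 FPKM in M1 and at 1.15, 1.13, 1.27 and 1.23 in M2, with no overlap (2.65, SE 0.09, limma adjusted p = 4.46e-17), while MS4A1 and CD79A were below the filter, at most 0.338 FPKM on average. TRAC, the constant part of the T cell receptor alpha gene, was at 60.8 FPKM in M1 and 73.7 in M2, and CD4 at 39.6 and 49.0 (-0.30, SE 0.05), while CD3D, CD3E, CD3G and CD2 were listed at 0. The fibroblast marker PDGFRA was at 5.11 FPKM in M1 and 2.14 in M2 (0.96, SE 0.09). Of the NK cell markers, GNLY was at 3.15 and 1.93 FPKM (0.50, SE 0.10), and NKG7 at 3.15 and 2.52 was not called. PECAM1, an adhesion molecule of endothelium and of myeloid cells, was at 72.4 ± 8.39 and 35.0 ± 2.98 FPKM (1.02, SE 0.09), and VWF and CDH5 were below the filter.

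**Figure D3:**
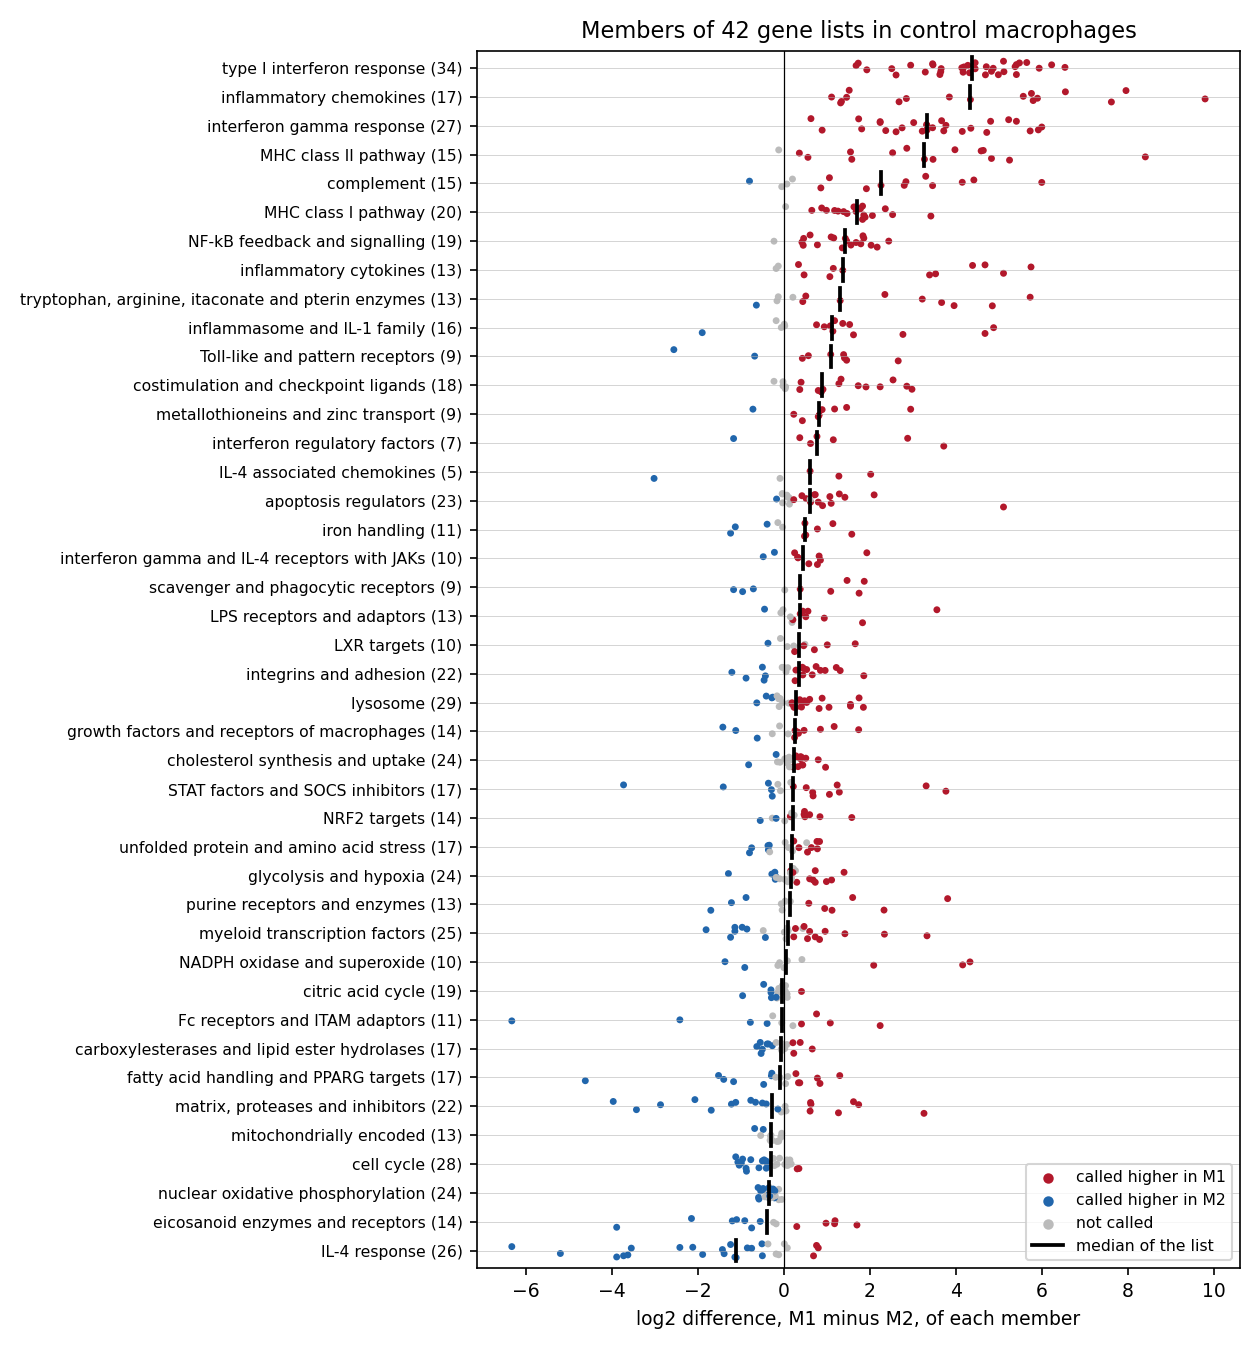
Log2 difference, M1 minus M2, of each kept member of 42 gene lists, with the number kept in brackets and the black bar at the median of the list; red and blue points were called higher in M1 and in M2. The interferon, chemokine and class II lists lie wholly or nearly wholly to the right of 0, the IL-4 response list has the lowest median, -1.12, and 32 of the 42 medians are above 0.

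The same contrast in the CES1 knockdown line, where 6140 genes were called (52.4%), gave the same sign for all 208 genes at least 4-fold higher in WT M1 and all 58 at least 4-fold higher in WT M2, of which 207 and 56 were also called there. Over all called genes the sign was the same for 2550 of the 2849 higher in WT M1 and 2284 of the 2642 higher in WT M2, and 97 and 126 genes were called with the opposite sign. Across the 11725 genes, Pearson's r of the log2 differences of both lines was 0.819, as a description across genes that share these libraries. The size differed more often. The contrast in WT minus the contrast in knockdown was called for 2822 genes (24.1%), 1435 more positive in WT (12.2%) and 1387 more negative (11.8%), and was at least 2-fold for 296 (2.52%). Without replicate 2 of CES1KD M2, which stood apart, it was called for 3501 genes, 1754 more positive and 1747 more negative in WT, and was at least 2-fold for 316. Of the 34 type I interferon genes, 32 were called different, and their median M1 minus M2 difference was 4.38 in WT and 2.13 in the knockdown.

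The levels behind those differences were not all in the same state. CXCL10 was at 1381 ± 63.4 FPKM in WT M1 and 1676 ± 166 in knockdown M1, and at 0.575 ± 0.327 in WT M2 and 24.7 ± 3.06 in knockdown M2. Its M1 levels were thus of the same order and its M2 levels were not, and the contrast differed by 3.77 (SE 0.20, limma adjusted p = 3.66e-12). IFIT1, IFIT3, OAS2 and SIGLEC1 had the same form, with knockdown M2 means of 45.2, 112, 67.3 and 20.9 FPKM against 1.32, 10.2, 6.25 and 0.897 in WT M2. HLA-DRA, in contrast, was at 434 ± 28.4 FPKM in WT M1 and 59.7 ± 5.48 in knockdown M1, and C1QB at 33.3 ± 6.96 and 1.24 ± 0.234. FCER1A was at 82.4 ± 6.72 FPKM in WT M2 and 4.52 ± 0.962 in knockdown M2, and F13A1 at 37.7 ± 1.49 and 3.35 ± 0.327. The contrast of PTGS2 turned its sign: -1.10 (SE 0.09) in WT and 1.41 (SE 0.09) in the knockdown.

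**Figure D4:**
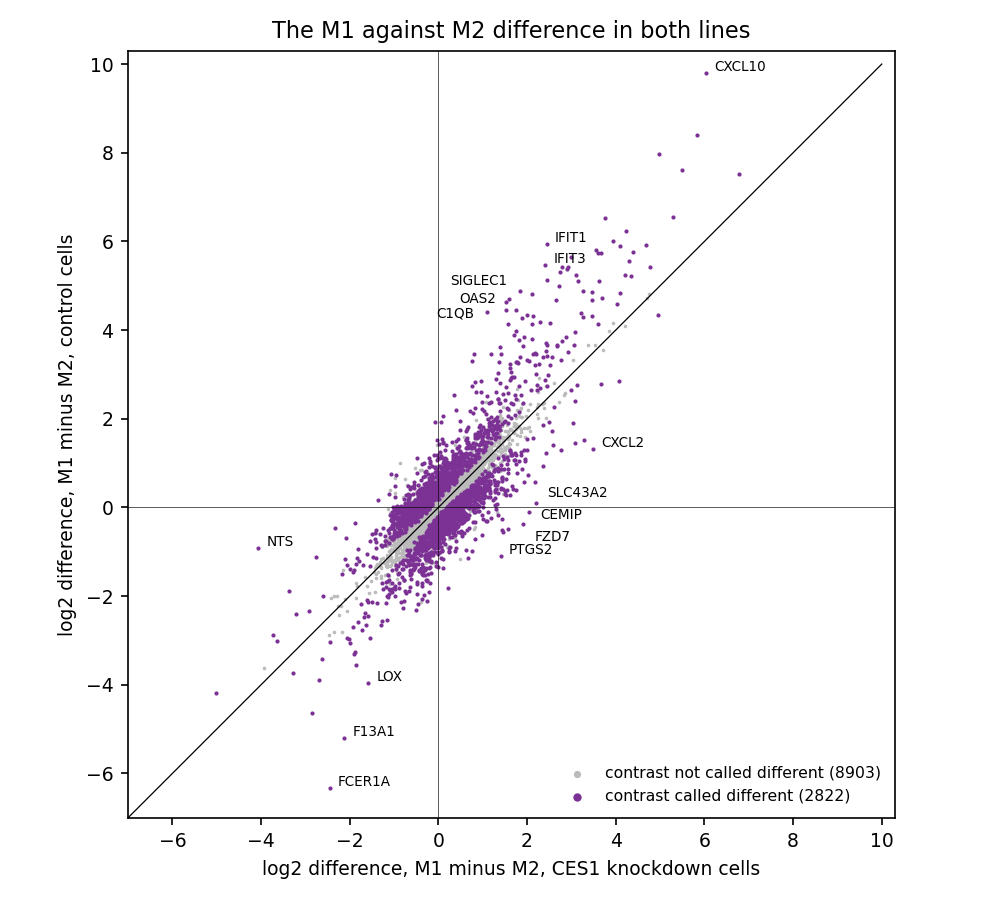
Log2 difference, M1 minus M2, of each of the 11725 genes in CES1 knockdown cells (x axis) and in WT cells (y axis), with the line of equal difference; purple points are the 2822 genes whose contrast was called different between the lines. CXCL10 lies at 9.80 in WT and 6.03 in the knockdown, FCER1A at -6.33 and -2.45, and PTGS2 on opposite sides of 0.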

How the data were processed

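RNA of PMA-treated THP-1 cells was sequenced, from samples with an RNA integrity number above 4, per the labels' protocols. The deposited values are FPKM per gene made by the authors, and per the submitters' processing notes the tools were HISAT2, DESeq and CASAVA, whose roles are not stated there. Coordinates in the deposited table equalled GENCODE release 29 (GRCh38) for 58690 of 58735 genes (99.92%). FPKM multiplied by gene length fell on whole multiples of 1 step per library for 100% of values, within a relative error of 1e-06. This gave fragment counts, the totals and the floors of 3 fragments. The 95% exact intervals and floors cover counting error only.

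The filter kept genes that reached 1 FPKM in 4 or more of the 8 libraries, and log2(FPKM + 1) was fitted with limma 3.58.1 (R 4.3.3, trended variance) with a mean for each of 6 groups over 24 libraries, leaving 18 residual degrees of freedom. The WT contrast minus the CES1KD contrast tested the difference between lines. The fit was tested on simulated data. Python 3.11.15, pandas 2.3.3, numpy 2.4.6 and scipy 1.17.1 did the rest. Genes were named as the 15 highest and 15 lowest protein-coding genes and 3 each of other biotypes. These were taken among called genes whose M1 and M2 libraries did not overlap, with a mean of at least 2 FPKM in the higher state. Also named were up to 4 members of each of 51 lists by p, the 8 highest and 8 lowest differences between lines with a mean of at least 2 FPKM, and markers. Other list members were named after their values were seen. Members and lists were chosen with earlier results of these data known. Same-numbered M1 and M2 libraries deviated together with correlations of 0.047 to 0.264 and other pairs with -0.502 to 0.464, so the numbers were not taken to pair them. Alternatives covered scaling, the value added, filters, the libraries fitted, the replicate block and leaving out each WT M1 and M2 replicate, and, added after seeing the data, each CES1KD M1 and M2 replicate. Some genes are not reported here.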

Additional observations from a re-analysis of the deposited data

Results flagged for a closer look

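Over 402 groups of 4 libraries (201 named genes in M1 and in M2), 23 held 1 library that stood apart from the other 3 by Dixon's criterion, which chance meets in about 1 in 20 groups. All values are FPKM of the library that stood apart. In M1, replicate 1 stood apart for PYROXD2 (0.238), LOX (0.2015), MT-CO3 (1579) and SESN2 (6.149). Replicate 3 of M1 stood apart for MMP1 (1.821), CISH (0.2632), AC022400.7 (1.25), NOD2 (2.276), SLAMF7 (68.06) and NCF1 (59.67), and replicate 4 for IFIT1 (128.7), IRF8 (14.17), CYSLTR1 (2.915) and SLC43A2 (1.522). In M2, replicate 1 stood apart for IFIT1 (0.8855), TRAF1 (5.272), IL13RA1 (10.61) and MTF1 (9.822). Replicate 2 of M2 stood apart for CXCL2 (0.03646), replicate 3 for NOD2 (0.05837), MT-CYB (940.2) and C1QB (1.058), and replicate 4 for AL591468.1 (0.1025). For CXCL2 and AL591468.1 the M2 libraries together held only 1 fragment, so that fragment alone met the criterion.

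The M1 minus M2 difference in WT cells differed from that in CES1 knockdown cells, by limma's test of the difference itself, for the 16 genes named by rule. The WT minus knockdown difference on the log2(FPKM + 1) scale was 3.77 for CXCL10, 3.49 for IFIT1, 3.32 for C1QB, 3.16 for NTS, 3.12 for OAS2, 3.11 for HLA-DPA1, 3.07 for IFIT3 and 3.03 for SIGLEC1. In the knockdown, HLA-DPA1 was at 1.89 FPKM in M1 with no fragment in M2, and C1QB at 1.24 in M1 and 0.0429 in M2. The added 1 shrinks differences at such levels, so the values of these genes do not compare ratios of levels between the lines. NTS, which encodes neurotensin, was higher in M2 in both lines, by -0.91 in WT and -4.07 in the knockdown. On the other side it was -2.11 for SLC43A2, -2.16 for CEMIP, -2.17 for CXCL2, -2.28 for FZD7, -2.38 for LOX, -2.51 for PTGS2, -3.08 for F13A1 and -3.88 for FCER1A. CXCL2 was at 1.54 FPKM in WT M1 with 1 fragment over the WT M2 libraries, a ratio of 169. The exact counting interval of this ratio was 30 to 6730. In the knockdown CXCL2 was at 13.1 FPKM in M1 and 0.253 in M2. Because of the added 1, its value of -2.17 does not compare ratios of levels between the lines either. The wingless receptor FZD7 was at 24.1 FPKM in knockdown M1 and 5.87 in knockdown M2.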

How the results depend on the processing

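The count of genes called higher in M2 moved beyond 1.5 times under 1 alternative: scaling by fragment totals gave 4358, against 2642, and 2086 higher in M1. The deposited library size was 0.922 to 0.946 of the fragment total in M1 and 1.03 to 1.07 of it in M2. Why that size differed between the states was not tested. The total called was 5491, and 6444 with that scaling, 5522 with median-ratio scaling, 5405 with 0.1 added before the log, 6269 with no filter, 5763 and 4670 with the filter over 24 libraries and over all 8, and 5274 from the 8 libraries alone. With the replicate block it was 5571, and the difference between lines gave 2810 against 2822; as a hint from the data only, same-numbered libraries did not always correlate best. Leaving out each WT M1 and M2 replicate in turn gave 5055 to 5465 genes, and 966 to 995 at least 2-fold against 968. The difference between lines was called for 2532 to 2765 genes then, and for 2183 from 16 libraries alone. Leaving out each CES1KD M1 and M2 replicate, chosen after seeing the data, gave 2552 to 3501 genes for it and 5406 to 6223 for WT M1 against M2, the highest of both without CES1KD M2 replicate 2. The 16 genes named for that difference kept their sign and call under each alternative in which they were tested, and the filter over all 8 libraries removed some of them. Of the named genes' alternatives, 5127 kept their side of the threshold, 16 gained a call, 10 lost one and 0 reversed; MYLIP, CCL13, MT-ATP6 and TRAC lost a call. Of the list counts, 2269 stayed within 1.5 times and 83 did not. Depth limits genes near 0: the floor for CXCL9 was 0.0149 FPKM.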

Other observations

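The 3 genes without protein coding that were lowest in M1 relative to M2, AC022400.4 (-2.87), AC022400.7 (-2.82) and the pseudogene GLUD1P3 (-2.77), lay within 13669 bases of each other on chromosome 10. The window of 100 kb on each side was chosen after these values were seen and held 10 other kept genes, of which 6 were called higher in M2, where 22.5% of all genes were, and 0 higher in M1, where 24.3% were. DUSP8P5, which overlaps GLUD1P3, was at 6.09 FPKM in M1, 43.9 in M2 and 6.56 in M0, and BMS1P4 at 1.30, 8.22 and 1.43. The protein-coding neighbours SYNPO2L, MYOZ1 and SEC24C were at 0.132, 27.5 and 20.7 FPKM in M1 and at 2.13, 60.4 and 37.6 in M2, with limma log2 differences of -1.47, -1.11 and -0.83. FUT11, CHCHD1, ZSWIM8 and AC022400.5 were not called. In the CES1 knockdown line the log2 difference was -1.72 for GLUD1P3, -1.62 for DUSP8P5, -0.87 for MYOZ1 and -0.16 for SEC24C. Several of these genes overlap or are pseudogenes, so the assignment of their reads is uncertain.

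Among genes without protein coding, AL591468.1, a long noncoding RNA gene on chromosome 6, was at 39.9 FPKM in M1 with 1 fragment over the M2 libraries, a ratio of 1680 with an exact 95% counting interval of 300 to 66200.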
